A study of Mus musculus with 8 samples.

Results

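Natural killer (NK) cells without the signalling inhibitor CIS were compared with wild-type NK cells, both in culture. The comparison rests on the 4 in vitro libraries of a series of 8 RNA sequencing libraries: 2 of CIS-null (CIS-/-) cells and 2 of wild-type cells, all from C57BL/6 mice. These libraries were chosen by genotype and culture label and by no measured value, and 13184 genes held enough counts to be tested. The other 4 libraries, 2 per genotype, came from NK cells ex vivo and shared the estimate of spread. The cells had been taken from spleen, bone marrow and blood and purified with beads that bind CD49b, the antigen of the DX5 antibody. The labels give no medium, cytokine or duration of culture, no age, no animals behind a library, no pooling and no map of the null allele. P-values therefore measure the spread between these libraries, which may be technical.

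As lymphocytes of the innate immune system, NK cells destroy infected or transformed cells by releasing perforin and granzymes from cytotoxic granules, and they secrete interferon-gamma and chemokines. Interleukin-15 sustains them and drives their growth through the receptor chains IL2RB and IL2RG, the kinases JAK1 and JAK3 and the transcription factor STAT5. CIS, encoded by Cish, is a SOCS family protein that STAT5 induces and that restrains signalling from the same receptor.

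Cish was read first, as a check of the labels. Its level was 219.8 and 201.9 CPM (counts relative to library size, scaled by the trimmed mean of M values) in wild-type cells, whereas the CIS-null libraries held 21.2 and 17.2 CPM. The groups did not overlap, and the CIS-null level differed from the wild-type level by -3.46 on the log2 scale (SE 0.193, 2 libraries per genotype, edgeR quasi-likelihood test with Benjamini-Hochberg adjusted p = 9.59e-05). Over all tested genes, both CIS-null libraries were below both wild-type libraries for 35.1% and above for 33.7%. The Cish call was kept without each of the 8 libraries in turn. Some counts thus remained over the gene in CIS-null cells, and which bases the null allele lacks was not analysed here. Cish spans chr9:107296659-107302784 of GRCm38. Its promoter window from RefSeq (GRCm38.p6, chr9:107296409-107296708, plus strand, 250 bases before to 50 after the annotated start) is shown because the gene is both the one removed and a known STAT5 target. Capitals mark matches to TTCNNNGAA, the pattern that STAT5 dimers are known to bind, which reads the same on both strands.
Cish: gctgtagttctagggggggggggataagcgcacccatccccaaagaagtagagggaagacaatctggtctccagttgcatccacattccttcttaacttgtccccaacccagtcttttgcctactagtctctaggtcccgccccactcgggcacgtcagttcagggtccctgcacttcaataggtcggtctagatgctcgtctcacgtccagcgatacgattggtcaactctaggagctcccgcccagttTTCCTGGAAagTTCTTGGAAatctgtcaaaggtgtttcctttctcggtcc
The window holds 2 matches, which begin at bases 1 and 12 of the annotated transcript. Of 32851 promoter windows of this length in the table, 8.3% hold at least 1 match and 0.457% hold 2 or more. A match describes the letters only.

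The in vitro libraries held 27.2 to 28.1 M counts. NK cell markers were abundant in all 4, with a summed level of 24113 to 41099 CPM over the 16 tested. The granzyme gene Gzma alone made up 11678 to 25875 CPM of that sum. Ncr1, which encodes the activating receptor NKp46, lay at 476.0 to 694.4 CPM. RNA linked to the sex chromosomes also separated the genotypes: Xist, the RNA of the inactive X, lay at 0 and 0.0351 CPM in wild-type and at 130.7 and 89.7 CPM in CIS-null libraries. The 4 tested Y-linked genes summed to 298.5 and 289.1 CPM in wild-type and to 0.0386 and 0.0801 CPM in CIS-null libraries. Genotype and this difference in sex-linked RNA cannot be told apart in vitro for any gene below. Among the calls, 30 higher and 43 lower genes lay on X and 4 lower genes on Y.

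Of the 13184 tested genes, 25.6% passed the test (threshold 0.05, adjusted over all genes): 1445 rose in CIS-null cells (11.0%) and 1929 fell (14.6%). Scaled by library totals alone, where the median log2 fold change over all genes was -0.13, 744 rose and 2773 fell. Both counts rested on single libraries, with 187 rises and 313 falls without CIS-null replicate 2, 396 and 472 without wild-type replicate 1, 344 and 769 without wild-type replicate 2, and 726 and 1175 or 720 and 1159 without a wild-type ex vivo library. In bulk RNA, a change in the number of cells of a type and a change in RNA per cell cannot be told apart. Direction went with transcript length. In the shortest quintile of genes (up to 1394 bases) 571 rose and 35 fell, with a median log2 fold change of 0.30, whereas in the longest quintile (4536 bases and more) 72 rose and 1027 fell, with a median of -0.38. The trend was steeper in CIS-null replicate 2, with medians of 0.40 and -0.52 in these quintiles without replicate 1, against 0.19 and -0.28 in CIS-null replicate 1 alone. Between the CIS-null replicates in vitro the log2 ratio of replicate 2 over replicate 1 correlated with length across genes at a Spearman rho of -0.451. The value was -0.0197 in wild-type cells in vitro. Ex vivo it was 0.37 in CIS-null and 0.11 in wild-type cells, so replicates differed by length there too. Genes are not independent replicates, so these are descriptions. Removing each library's own trend with length brought the medians of all quintiles to between -0.04 and -0.01. It left 2904 calls (22%), which included 876 of the rises and 1263 of the falls, and 0 calls were of opposite direction.

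**Figure D1:**
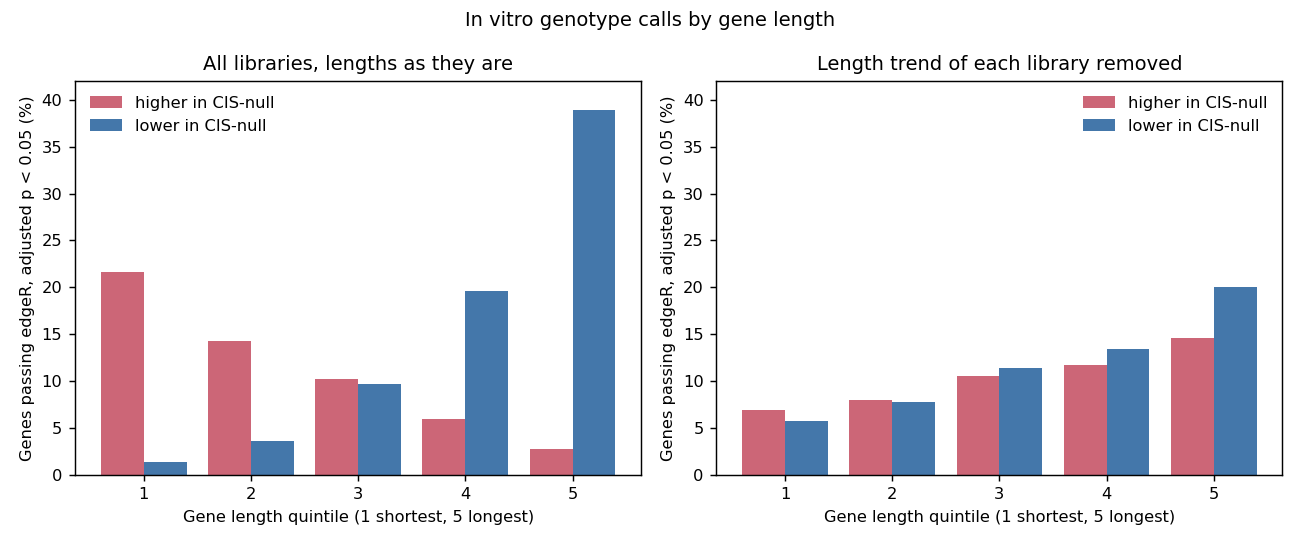
Percent of tested genes that passed the edgeR test (y axis) in each quintile of gene length (x axis, 1 shortest to 5 longest), higher (red) or lower (blue) in CIS-null cells, before (left) and after (right) the length trend of each library was removed. Before removal the share of higher genes falls from 21.7% to 2.73% with length and the share of lower genes climbs from 1.33% to 38.9%. After removal 183 genes rose and 152 fell in the shortest quintile and 386 rose and 528 fell in the longest, so the share called still climbs with length.

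Because of this trend and of the replicates, a stricter set is used below. A call is described as held where the gene passed in the same direction with all libraries, without each of the 8 libraries in turn, and with the length trend removed. This left 424 genes (3.22%), 155 higher (1.18%) and 269 lower (2.04%), of which 53 and 159 changed at least 2-fold. Held higher genes had a median length of 1890 bases and held lower genes of 5372 bases, beside 2682.5 bases over all tested genes, so the held set still leaned on length. Removal of the trend and omission of a library were not combined in this rule. Of the held genes named below, Trdv5, Pdzd2, Mrps6, Atf4, Creld2 and Rb1cc1 did not pass under both at once. Only CIS-null in vitro libraries were left out in that combined fit. A gene that is called without being held is named with the library that ended its call.

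The held autosomal genes with the largest rises were mostly of the T cell receptor complex and the cytotoxic granule. Of the 15 named, 8 encode chains of the T cell receptor complex: Trgv2, Tcrg-V4, Tcrg-V1, Tcrg-C2, Tcrg-C4, Trdv5, Cd3d and Cd3e, and they are described with the other lymphocyte markers below. The granule genes were Gzme and Gzmg, which encode granzymes, and Serpinb9b, a serine protease inhibitor. The remaining 4 were Crisp1, a cysteine-rich secretory protein (1.15 and 1.23 CPM in wild-type, 7.67 and 19.1 CPM in CIS-null libraries), Myl10, a myosin light chain, B4galnt2, a glycosyltransferase, and Il1r2, the decoy receptor for interleukin-1. Il1r2 lay at 4.66 and 3.79 CPM in wild-type and at 15.6 and 18.1 CPM in CIS-null libraries (log2 fold change 1.99, SE 0.222, edgeR adjusted p = 0.0037).

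Among the 15 held falls Cish was outranked by Rpl29, which encodes a large-subunit ribosomal protein. Rpl29 went from 255.4 and 136.9 CPM in wild-type to 2.004 and 1.962 CPM in CIS-null libraries (log2 fold change -6.62, SE 0.339, edgeR adjusted p = 7.73e-05). It starts at position 106428889 of chromosome 9, where Cish starts at position 107296659, and has processed copies elsewhere that could share its reads. Ex vivo Rpl29 was low in CIS-null libraries too, at 4.28 and 3.31 CPM against 141.8 and 131.8 CPM in wild-type (-5.18, edgeR adjusted p = 0.000433). Its fall is thus not particular to culture, and its cause was not tested. Wdfy1, an endosomal adaptor of Toll-like receptor signalling, went from 53.3 and 50.9 CPM to 7.98 and 6.89 CPM (-2.81, SE 0.180, edgeR adjusted p = 0.000262). Dscam, a cell adhesion molecule, went from 21.1 and 18.9 CPM to 3.82 and 3.76 CPM (-2.40, SE 0.188, edgeR adjusted p = 0.00123). Tmem181b-ps, a pseudogene, had -1.58 in vitro and -1.50 ex vivo (edgeR adjusted p = 0.0029 and 0.0315). The other falls were 10 genes with transcripts of 5408 to 18115 bases. These encode scaffolds of the nuclear envelope, pore, spindle and centrosome (Syne1, Tpr, Numa1, Pcnt), chromatin and cohesin proteins (Bptf, Baz2b, Nipbl, Bod1l), the PDZ protein Pdzd2 and the ciliary transport protein Ift172. Their log2 fold changes ran from -1.93 to -1.56 and from -1.30 to -1.05 with the length trend removed.

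**Figure D2:**
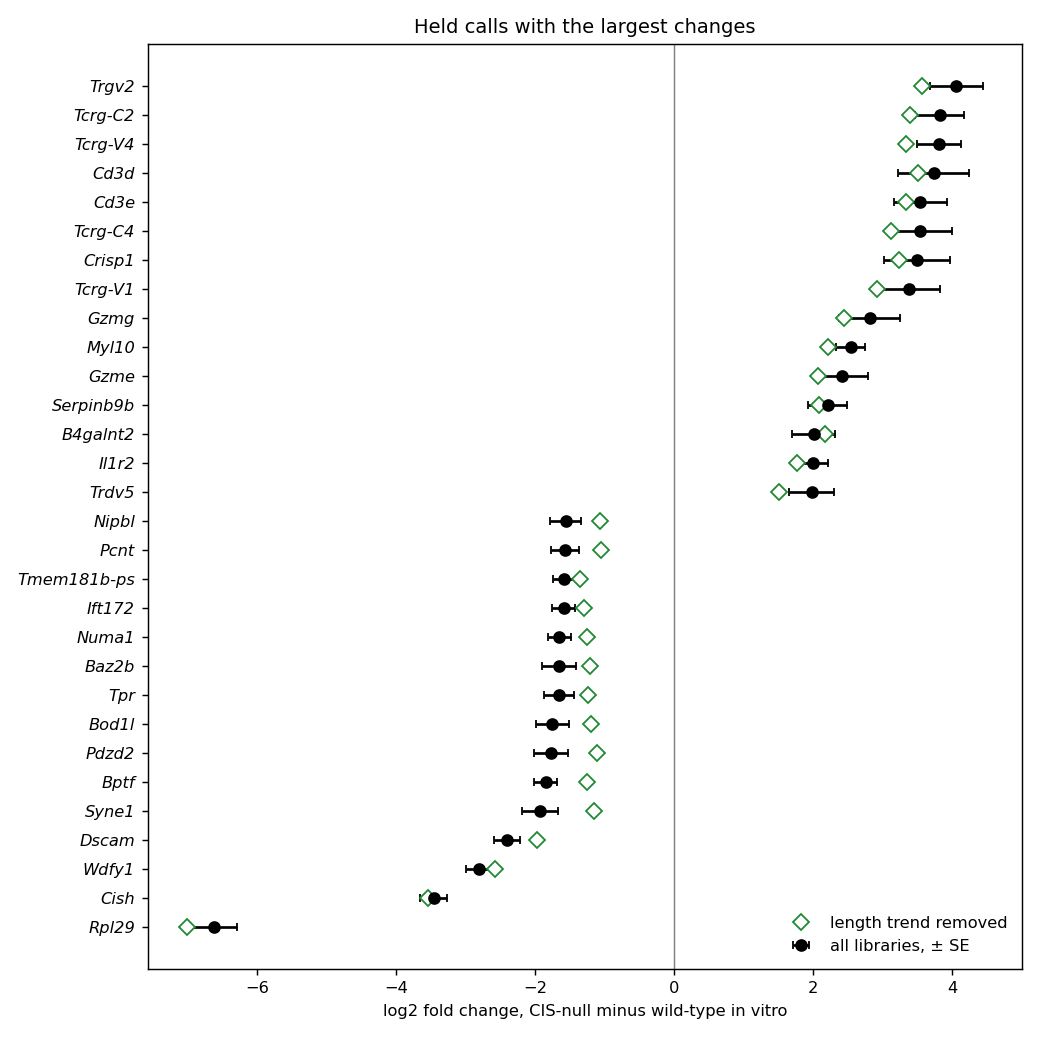
Log2 fold change of CIS-null over wild-type cells in vitro (x axis) for the 15 held genes per direction with the largest change. Black points are the fit to all libraries with their standard errors, and open diamonds the fit with the length trend removed. Removal moved Syne1 from -1.93 to -1.16 and Cish from -3.46 to -3.54, and every gene shown kept its direction.

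The receptor and JAK-STAT relay came next, since CIS acts on it. The shared receptor chains did not pass: Il2rb lay at 3446 and 3342 CPM in wild-type and at 4175 and 3609 CPM in CIS-null libraries (edgeR adjusted p = 0.230 for a log2 fold change of 0.20, SE 0.114). Il2rg had a log2 fold change of 0.00 (SE 0.106, adjusted p = 0.998). Of the 20 tested receptor and relay genes 1 rose (5.0%, beside 11.0% of all genes) and 7 fell (35.0%, beside 14.6%), and 0 were held. Once the length trend was removed the balance was 4 higher and 3 lower. The list's median was -0.29, and -0.12 with the length trend removed, when 3 of the 7 falls were kept, beside 0.00 and -0.02 over all tested genes. Stat4, which relays interleukin-12, went from 222.8 and 171.3 CPM to 132.7 and 113.0 CPM (-0.68, SE 0.136, edgeR adjusted p = 0.0113), but did not pass without CIS-null replicate 2 (adjusted p = 0.0878) or wild-type replicate 1 (0.0776). Jak1 fell by 0.58 on the log2 scale (SE 0.131, edgeR adjusted p = 0.0168) and did not pass without CIS-null replicate 2 (0.0880), wild-type replicate 1 (0.101) or replicate 2 (0.0625), nor with the length trend removed (0.0514). Without CIS-null replicate 2 and without wild-type replicate 1 the list had 0 lower calls, without wild-type replicate 2 it had 1, and without either wild-type ex vivo library 4.

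Il18r1, the binding chain of the receptor for interleukin-18, was held. Its level was 178.4 and 149.4 CPM in wild-type and 71.8 and 71.2 CPM in CIS-null libraries (-1.20, SE 0.106, edgeR adjusted p = 0.00191). Kit, the receptor for stem cell factor, lay at 747.8 and 955.0 CPM in wild-type and at 421.5 and 362.8 CPM in CIS-null libraries (-1.12, SE 0.164, edgeR adjusted p = 0.00528), and missed the threshold without CIS-null replicate 2 (0.0509). For both genes each CIS-null library was below each wild-type library.

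The other SOCS family genes did not move as Cish did. Socs1 lay at 63.6 and 64.2 CPM in wild-type and at 72.0 and 68.0 CPM in CIS-null libraries (log2 fold change 0.13, SE 0.131, edgeR adjusted p = 0.486). Socs2 had a log2 fold change of -0.17 (SE 0.147, adjusted p = 0.426) and Socs3 of -0.09 (SE 0.196, adjusted p = 0.765). Of the 8 tested members, 2 fell, Cish and Socs7, and the latter no longer passed with the length trend removed (0.859), nor without CIS-null replicate 2 or any 1 wild-type library. The 21 genes known to be induced through STAT5 had calls near the share of all genes: 3 rose (14.3%, beside 11.0%) and 3 fell (14.3%, beside 14.6%), with a median of 0.13. Those that rose were Gzmb, Prf1 and Tnfrsf9, and those that fell were Cish, Bcl2 and Cd44, of which Cish alone was kept with the length trend removed or without CIS-null replicate 2 or any 1 wild-type library. Bcl2, which protects from cell death, fell by 0.43 on the log2 scale (SE 0.130, edgeR adjusted p = 0.0413) but had a log2 fold change of 0.00 with the length trend removed, and its adjusted p was 0.0689 to 0.245 without CIS-null replicate 2 or any 1 of the 4 wild-type libraries. Pim1, a survival kinase, had a log2 fold change of 0.10 (SE 0.178, adjusted p = 0.701).

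Of 23 tested genes of the cytotoxic granule 12 rose and 0 fell (52.2%, beside 11.0% of all genes), with a median log2 fold change of 0.54. Removing the length trend kept 10 of the 12, with a median of 0.32, and made 2 other members lower, and 5 were held: Gzmb, Gzme, Gzmg, Serpinb9 and Serpinb9b. The count was 7 without CIS-null replicate 2 and 5 without wild-type replicate 2.

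Gzmb encodes granzyme B, the protease that starts apoptosis in a target cell. Its level was 11123 and 12008 CPM in wild-type and 24149 and 24977 CPM in CIS-null libraries (edgeR adjusted p = 0.00297 for a log2 fold change of 1.09, SE 0.115). The groups did not overlap. Serpinb9, which inhibits granzyme B and protects the killer cell, lay at 632.3 and 560.6 CPM in wild-type and at 1277 and 1351 CPM in CIS-null libraries (1.14, SE 0.106, edgeR adjusted p = 0.0020). Its relative Serpinb9b went from 59.9 and 31.8 CPM to 174.6 and 249.2 CPM (2.21, SE 0.280, edgeR adjusted p = 0.00381). In all 3 genes both CIS-null libraries were above both wild-type libraries.

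Gzma, Gzmc and Prf1 rose too but were not held. Gzma went from 13997 and 11678 CPM to 20327 and 25875 CPM (0.85, SE 0.150, edgeR adjusted p = 0.0083) and did not pass without CIS-null replicate 2 (0.0537) or wild-type replicate 2 (0.0521). Gzmc rose by a log2 fold change of 0.71 (SE 0.178, adjusted p = 0.0233) and did not pass without CIS-null replicate 2 (0.144), wild-type replicate 1 (0.113) or replicate 2 (0.0668). Prf1, the pore-forming protein perforin, went from 857.5 and 749.5 CPM to 1290 and 1181 CPM (0.62, SE 0.114, edgeR adjusted p = 0.0093) and did not pass without wild-type replicate 2 (0.0627). Together Gzma, Gzmb and Gzmc took 3.9% and 3.96% of all counts in wild-type and 6.16% and 6.99% in CIS-null libraries.

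The authors' log2 RPKM values gave another picture for these 3 genes. There, limma found a log2 fold change of 0.00 for Gzma (adjusted p = 1), 0.13 for Gzmb (adjusted p = 0.757) and -0.13 for Gzmc (adjusted p = 0.725). Brought back to a per-library scale by adding log2 length, the deposited values were nearly the same in the 4 in vitro libraries at equal rank, with a median range of 0.00137 and a range of 0.00 at ranks 1 to 3, against 0.21 and up to 1.01 for CPM from the counts. Gzma, Gzmb and Gzmc held ranks 1 to 3 in each of these libraries. A scale that fixes the value at each rank cannot show a rise shared by the 3 leading genes. The loss was not confined to these ranks. By log2 RPKM the cytotoxic list had 7 rises in place of 12, and Prf1 (0.38, adjusted p = 0.0788), Ccl1 (0.85, 0.148), Xcl1 (0.36, 0.0891) and Mycn (0.95, 0.0840) did not pass, for which the cause was not tested. Serpinb9 had 0.95 (adjusted p = 0.00503) and Gzmg 2.70 (adjusted p = 0.0083) there.

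Gzmd, Gzme and Gzmg, neighbouring granzyme genes on chromosome 14, had the largest rises of the list. Gzmd lay at 263.2 and 180.2 CPM in wild-type and at 716.5 and 1543 CPM in CIS-null libraries (2.35, SE 0.371, edgeR adjusted p = 0.00937), although it missed the threshold without wild-type replicate 2 (0.0545). Gzme went from 99.6 and 65.2 CPM to 288.0 and 597.1 CPM (2.42, SE 0.366, edgeR adjusted p = 0.0085). Gzmg went from 63.5 and 35.6 CPM to 213.3 and 479.6 CPM (2.81, SE 0.433, edgeR adjusted p = 0.00893). CIS-null replicate 2 was the highest library for all 3 genes, and the groups did not overlap. The longest coding transcripts of these genes are 90.5% to 94.8% identical in aligned bases, so reads can be split between them. Their sum, which does not depend on that split, was 426.3 and 281.0 CPM in wild-type and 1218 and 2619 CPM in CIS-null libraries. The 4 ex vivo libraries had 0 counts for these genes among 21.5 to 24.9 M, which allows up to 3 counts in each. The promoter windows of the 3 genes (RefSeq, GRCm38.p6, minus strand, printed 5′ to 3′) are shown because their genes moved together. Gzmd lies at chr14:56132544-56132843, Gzme at chr14:56120576-56120875 and Gzmg at chr14:56159530-56159829. Capitals mark TGTGGT on either strand (ACCACA where it lies on the other), the core that RUNX factors are known to bind.
Gzmd: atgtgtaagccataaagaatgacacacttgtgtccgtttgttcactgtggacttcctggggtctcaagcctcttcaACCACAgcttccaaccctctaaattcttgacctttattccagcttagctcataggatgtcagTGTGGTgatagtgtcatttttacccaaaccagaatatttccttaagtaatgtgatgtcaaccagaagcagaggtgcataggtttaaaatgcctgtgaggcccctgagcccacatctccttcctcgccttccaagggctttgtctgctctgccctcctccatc
Gzme: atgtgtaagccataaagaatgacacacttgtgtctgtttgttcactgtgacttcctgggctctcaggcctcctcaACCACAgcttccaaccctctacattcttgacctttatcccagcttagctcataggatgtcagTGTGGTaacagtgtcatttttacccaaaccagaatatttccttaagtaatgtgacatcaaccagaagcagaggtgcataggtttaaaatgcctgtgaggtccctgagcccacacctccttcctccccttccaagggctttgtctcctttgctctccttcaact
Gzmg: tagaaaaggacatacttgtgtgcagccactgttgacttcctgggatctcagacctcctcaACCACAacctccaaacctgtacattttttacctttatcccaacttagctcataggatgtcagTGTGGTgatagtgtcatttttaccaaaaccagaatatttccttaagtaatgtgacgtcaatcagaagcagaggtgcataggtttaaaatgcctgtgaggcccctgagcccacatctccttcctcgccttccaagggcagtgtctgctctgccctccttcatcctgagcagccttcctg
Each window holds 2 matches at the same spacing, and the windows are 89.4% to 94.0% identical. Of all promoter windows 16.8% hold at least 1 match and 1.81% hold 2 or more, and the match is a description, not a site shown to be used.

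**Figure D3:**
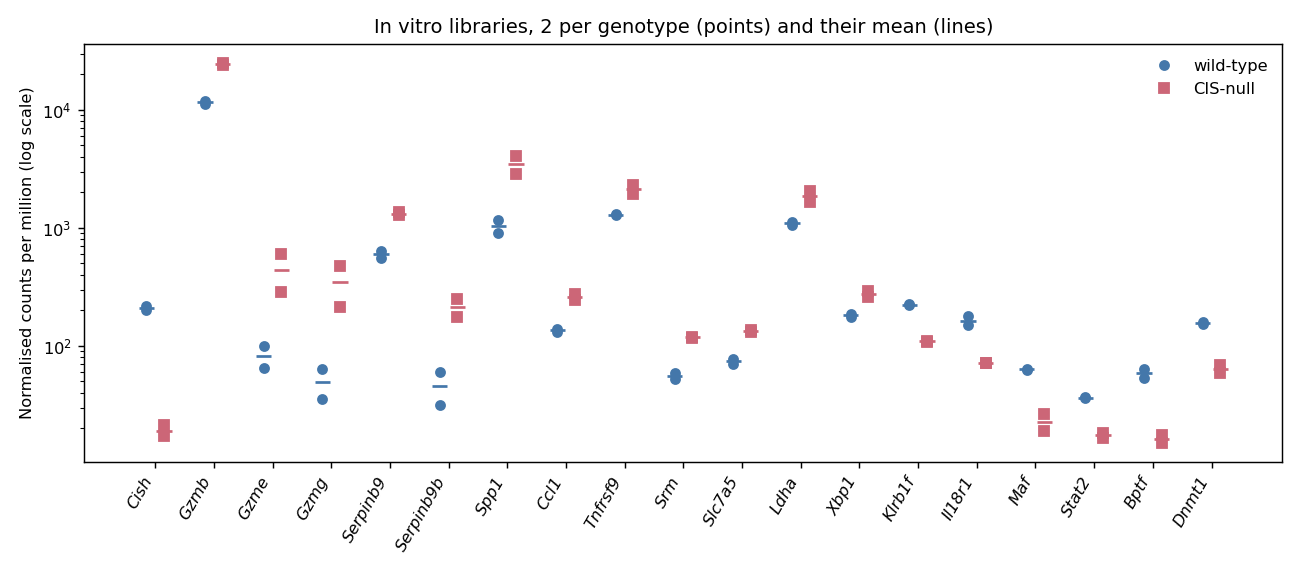
Normalised CPM (y axis, log scale) of Cish and 18 held genes (x axis) in the 2 wild-type (blue circles) and 2 CIS-null (red squares) in vitro libraries, with each group's mean as a line. For every gene shown the 2 groups are apart. Gzmb, for example, lay at 11123 and 12008 CPM in wild-type against 24149 and 24977 CPM in CIS-null libraries. Cish lay at 219.8 and 201.9 against 21.2 and 17.2 CPM.

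Of 16 tested NK cytokines and chemokines 7 rose (43.8%, beside 11.0% of all genes), 1 fell and 8 did not pass, with a median of 0.55, and 2 were held. Only these 2, Spp1 and Ccl1, were kept among the 7 with the length trend removed. Spp1, which encodes osteopontin, lay at 1178 and 906.3 CPM in wild-type and at 2883 and 4070 CPM in CIS-null libraries (1.74, SE 0.247, edgeR adjusted p = 0.0049). Ccl1, a chemokine ligand of CCR8, went from 132.1 and 138.8 CPM to 277.3 and 246.4 CPM (0.95, SE 0.106, edgeR adjusted p = 0.00303). Both genes were apart between genotypes in all 4 libraries. Ifng, which encodes interferon-gamma, went from 66.2 and 81.7 CPM to 146.8 and 108.7 CPM (0.79, SE 0.175, edgeR adjusted p = 0.0154) and did not pass without CIS-null replicate 1 (0.0574) or wild-type replicate 1 (0.0881), nor with the length trend removed (0.0942). Xcl1, the chemokine that draws cross-presenting dendritic cells, went from 1828 and 1927 CPM to 2655 and 2832 CPM (0.55, SE 0.101, edgeR adjusted p = 0.00931). With the length trend removed it did not pass (0.511), nor without CIS-null replicate 2 (0.0561) or wild-type replicate 1 (0.0543). The count of rises was 4 without either CIS-null library or without wild-type replicate 2.

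In the TNF superfamily the one held gene was Tnfrsf9, the costimulatory receptor 4-1BB. Its level was 1306 and 1277 CPM in wild-type and 1945 and 2316 CPM in CIS-null libraries (0.72, SE 0.106, edgeR adjusted p = 0.0054). Of the 14 tested receptors of the family 1 rose (7.14%) and 0 fell, and of the 10 ligands 1 rose and 1 fell. Neither list had a larger share of calls in either direction than all tested genes, of which 11.0% rose and 14.6% fell. Fasl, the death ligand of NK cells, had a log2 fold change of 0.12 (SE 0.0842, adjusted p = 0.332).

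Receptor lists differed in how many genes passed. Of 23 activating receptors and adaptors 2 rose (8.7%, beside 11.0% of all genes) and 1 fell (4.35%, beside 14.6%), with a median of 0.07, and with the length trend removed 3 were higher and 5 lower. The fall was Klrb1f, a member of the NKR-P1 lectin family, held at 221.6 and 226.8 CPM in wild-type and 108.5 and 109.8 CPM in CIS-null libraries (-1.04, SE 0.0899, edgeR adjusted p = 0.00171). Its replicates differed by far less than its groups. Ncr1 did not pass (log2 fold change -0.35, SE 0.113, adjusted p = 0.0524) and neither did Klrk1, which encodes NKG2D (-0.30, SE 0.122, adjusted p = 0.108). With the length trend removed Ncr1 passed as lower (-0.56, adjusted p = 0.00824). Of 19 inhibitory receptors and checkpoint molecules 6 rose (31.6%) and 0 fell, but 0 were held, and with the length trend removed 3 were higher and 1 lower. The count was 0 without CIS-null replicate 2, 3 without replicate 1, 2 and 1 without wild-type replicates 1 and 2, and 4 without either wild-type ex vivo library.

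The 12 tested Ly49 genes, receptors for MHC class I, were divided, with 3 rises (25.0%) and 2 falls (16.7%), and 1 rise without CIS-null replicate 2. Klra5, which encodes Ly49E, was held at 64.3 and 84.1 CPM in wild-type and 141.7 and 134.5 CPM in CIS-null libraries (0.90, SE 0.126, edgeR adjusted p = 0.00473). Klra1, which encodes Ly49A, went from 157.1 and 82.0 CPM to 274.2 and 341.1 CPM (1.36, SE 0.268, edgeR adjusted p = 0.0109) and did not pass without CIS-null replicate 2 (0.0857). Klra3, which encodes Ly49C, went from 136.1 and 151.6 CPM to 79.3 and 96.2 CPM (-0.71, SE 0.149, edgeR adjusted p = 0.0128) and did not pass without CIS-null replicate 2 (0.0505), wild-type replicate 1 (0.0539) or replicate 2 (0.0762). Ly49 genes are near-identical in part, so counts of single members are uncertain.

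Among 14 markers of NK maturation 2 rose (14.3%, beside 11.0% of all genes) and 1 fell (7.14%, beside 14.6%). Ly6c2, which encodes the surface protein Ly6C of memory-like and mature lymphocytes, was held at 29.7 and 26.1 CPM in wild-type and 94.1 and 124.5 CPM in CIS-null libraries (1.97, SE 0.157, edgeR adjusted p = 0.00124). Itga2 encodes CD49b, the antigen of the beads used to purify the cells. It was held in the other direction, at 21.2 and 18.2 CPM in wild-type and 10.02 and 7.128 CPM in CIS-null libraries (-1.20, SE 0.156, edgeR adjusted p = 0.00409). Itgam, which encodes the maturation marker CD11b, had a log2 fold change of -0.09 (SE 0.152, adjusted p = 0.701).

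Transcription factors of the NK lineage were mostly lower where they passed. Of 32 tested, 14 fell and 3 rose (43.8% lower, beside 14.6% of all genes), with a median of -0.56. Removing the length trend kept 12 of the 14 falls, with a median of -0.34, but 1 was held. That gene, Maf, encodes a basic leucine zipper factor of differentiated lymphocytes and lay at 64.4 and 62.5 CPM in wild-type and 26.5 and 18.9 CPM in CIS-null libraries (-1.48, SE 0.159, edgeR adjusted p = 0.00297). Eomes, a T-box factor that defines NK cells, went from 183.2 and 165.6 CPM to 124.5 and 109.5 CPM (-0.58, SE 0.109, edgeR adjusted p = 0.00959) and did not pass without CIS-null replicate 2 (0.0692) or wild-type replicate 1 (0.0738). Foxo1, which restrains NK maturation, fell by 0.66 on the log2 scale (SE 0.121, edgeR adjusted p = 0.00893) with the same 2 exceptions (0.0564 and 0.0660). Tbx21, which encodes T-bet, did not pass (-0.41, SE 0.172, adjusted p = 0.111). The count of falls was 1 without CIS-null replicate 2, 3 without wild-type replicate 1 and 9 without wild-type replicate 2.

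Lists of growth and protein production had more rises than falls, and differed in how far gene length went with the change. Over all tested genes 11.0% rose and 14.6% fell, or 10.4% and 11.7% with the length trend removed. Of 51 ribosome biogenesis factors, which process ribosomal RNA and assemble subunits, 33 rose and 0 fell (64.7%), with a median of 0.40. With the length trend removed 27 were kept with a median of 0.35, and 12 were held. Nop56 and Nop58, core proteins of the box C/D particles that methylate ribosomal RNA, rose from 59.5 and 58.7 to 90.2 and 92.7 CPM (0.63, SE 0.0829, edgeR adjusted p = 0.00409) and from 130.6 and 132.1 to 187.7 and 197.3 CPM (0.55, SE 0.0816, adjusted p = 0.00546). Wdr12, which acts in large subunit assembly, rose from 23.5 and 23.9 to 39.6 and 47.3 CPM (0.87, SE 0.122, edgeR adjusted p = 0.00473). The groups did not overlap in any of the 3 genes. The count of rises was 14 without CIS-null replicate 2 or wild-type replicate 1, and 17 without wild-type replicate 2.

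Cytosolic ribosomal proteins had nearly the same median, 0.38 over 80 genes, yet with the length trend removed it was 0.01 and 0 of the 5 rises (6.25%, beside 11.0% of all genes) were kept. Without either CIS-null ex vivo library this list had 36 rises, and by DESeq2 21. Nuclear genes of the respiratory chain went from 36 rises of 74 to 3 kept, with a median of 0.41 and then 0.03, and had 58 without either CIS-null ex vivo library. Mitochondrial ribosomal proteins went from 44 of 77 (57.1%) to 14 kept (0.43, then 0.14), and proteasome subunits from 25 of 38 (65.8%) to 3 kept (0.38, then 0.13). The median lengths of these 4 lists were 680 to 1262.5 bases, against 2612 bases for ribosome biogenesis factors. Without CIS-null replicate 2 the 4 lists together had 2 rises, of 1 mitochondrial ribosomal protein and 1 proteasome gene. Without wild-type replicate 1 the cytosolic, mitochondrial, respiratory and proteasome lists had 5, 2, 1 and 1 rises, without wild-type replicate 2 they had 0, 3, 1 and 2, and without either wild-type ex vivo library the mitochondrial list had 18 or 19, the respiratory chain 3, the proteasome 6 and the cytosolic ribosome 2. The 2 rises were Mrps6 (0.77, SE 0.133, edgeR adjusted p = 0.00748) and Psme3, an activator of the proteasome (0.56, SE 0.0867, adjusted p = 0.00582), both of which were held.

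Polyamine and Myc genes rose in 10 of 19 cases (52.6%, beside 11.0% of all genes) and fell in 1 (5.26%, beside 14.6%). Their median was 0.35 and then 0.30. Srm, which encodes spermidine synthase, was held at 53.0 and 58.7 CPM in wild-type and 117.5 and 120.1 CPM in CIS-null libraries (1.09, SE 0.109, edgeR adjusted p = 0.0027). Odc1, the rate-limiting enzyme of polyamine synthesis, went from 213.4 and 218.1 CPM to 335.6 and 390.8 CPM (0.75, SE 0.128, edgeR adjusted p = 0.00722) and missed the threshold without CIS-null replicate 2 (0.0570). Mycn was held at 33.0 and 35.2 CPM in wild-type and 60.6 and 62.0 CPM in CIS-null libraries (0.85, SE 0.111, edgeR adjusted p = 0.00409), whereas Myc had a log2 fold change of -0.24 (SE 0.168, adjusted p = 0.315). The list had 2 rises without CIS-null replicate 2, 5 without wild-type replicate 1 and 6 without wild-type replicate 2.

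Nutrient uptake and the responses that support secretion followed. Of 14 amino acid transporters 6 rose (42.9%, beside 11.0% of all genes) and 0 fell. All 6 were kept with the length trend removed, and the median moved from 0.35 to 0.60. Slc7a5, the large neutral amino acid transporter, was held at 78.0 and 70.9 CPM in wild-type and 137.7 and 130.7 CPM in CIS-null libraries (0.85, SE 0.119, edgeR adjusted p = 0.00473). Slc3a2, its heavy chain, rose by 0.61 on the log2 scale (SE 0.121, edgeR adjusted p = 0.0113) but did not pass without CIS-null replicate 2 (0.0684), wild-type replicate 1 (0.0571) or replicate 2 (0.0666). Of 28 glycolysis genes 8 rose (28.6%, beside 11.0% of all genes) and 1 fell (3.57%, beside 14.6%). Ldha, lactate dehydrogenase, was held at 1056 and 1125 CPM in wild-type and 1660 and 2037 CPM in CIS-null libraries (0.76, SE 0.125, edgeR adjusted p = 0.00654). Slc16a1, which exports lactate, was held too (0.94, SE 0.130, adjusted p = 0.0046). The transporter count was 3, 3 and 2 without CIS-null replicate 2, wild-type replicate 1 and wild-type replicate 2, and the glycolysis count 2, 2 and 11.

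Among 23 genes of the ATF4 response and of serine and one-carbon synthesis 14 rose (60.9%, beside 11.0% of all genes) and 1 fell. The median was 0.32, and 0.40 with the length trend removed, with 13 rises kept. Atf4 was held at 67.4 and 56.9 CPM in wild-type and 96.6 and 105.2 CPM in CIS-null libraries (0.70, SE 0.107, edgeR adjusted p = 0.00569). Asns, asparagine synthetase, went from 21.9 and 14.0 CPM to 43.2 and 58.3 CPM (1.5, SE 0.234, edgeR adjusted p = 0.00603) and did not pass without CIS-null replicate 2 (0.0574). Of 27 genes of the unfolded protein response and of ER chaperones 14 rose (51.9%) and 0 fell (median 0.38, then 0.32, with 13 kept). Xbp1, its transcription factor, was held at 175.1 and 187.4 CPM in wild-type and 260.5 and 293.3 CPM in CIS-null libraries (0.61, SE 0.0941, edgeR adjusted p = 0.00574). So were Manf (0.69, SE 0.103, adjusted p = 0.00546) and Creld2 (0.57, SE 0.0883, adjusted p = 0.00574), which are secreted ER stress proteins. Without CIS-null replicate 2 the 2 lists had 1 and 5 rises, without wild-type replicate 1 they had 4 and 5, without wild-type replicate 2 they had 4 and 6, and without either wild-type ex vivo library the ATF4 list had 7.

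**Figure D4:**
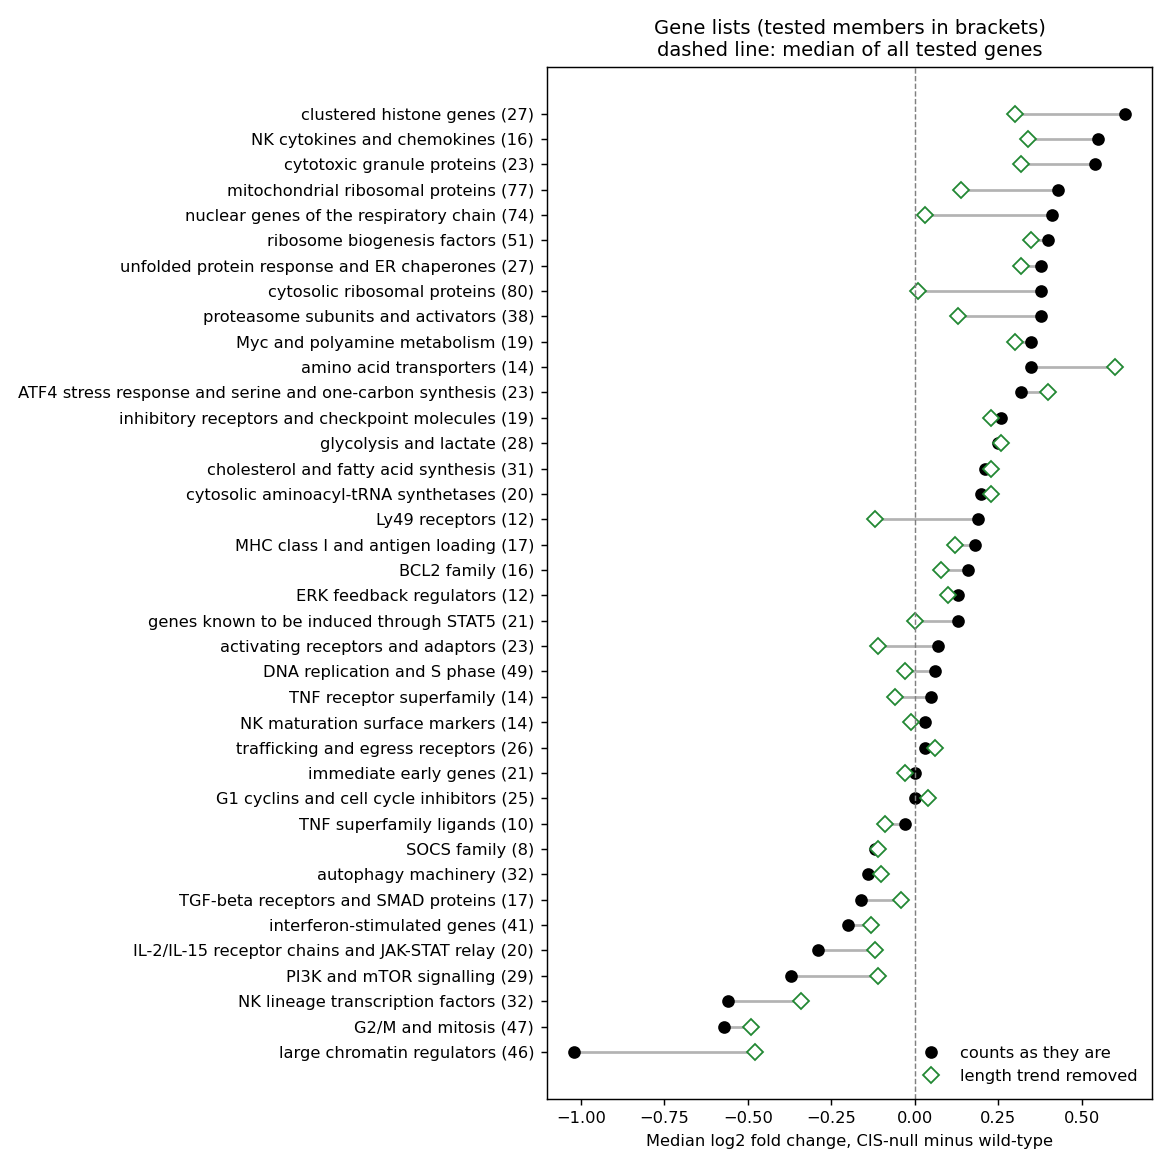
Median log2 fold change of CIS-null over wild-type cells in vitro (x axis) over the tested members of each gene list (y axis, number of members in brackets), from the counts as they are (black) and with the length trend removed (open diamonds). Removal takes cytosolic ribosomal proteins from 0.38 to 0.01 and leaves ribosome biogenesis factors at 0.35, and it takes large chromatin regulators from -1.02 to -0.48.

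Among mitotic genes the calls were falls. Of 47 genes of G2/M and mitosis 20 fell (42.6%, beside 14.6% of all genes), 0 rose and 27 did not pass, with a median of -0.57, and 18 falls were kept with the length trend removed (median -0.49). None was held, because the count was 0 without CIS-null replicate 2, 3 without wild-type replicate 1, 9 without wild-type replicate 2, 10 without CIS-null replicate 1, and 13 and 12 without wild-type ex vivo replicates 1 and 2. Mki67, the proliferation antigen Ki-67, went from 118.3 and 87.5 CPM to 25.5 and 21.0 CPM (-2.15, SE 0.412, edgeR adjusted p = 0.0100) and did not pass without CIS-null replicate 2 (0.0941) or wild-type replicate 1 (0.0598). Cenpf, a kinetochore protein, went from 19.9 and 15.7 CPM to 4.59 and 4.09 CPM (-2.03, SE 0.305, edgeR adjusted p = 0.00554), and missed the threshold without CIS-null replicate 2 (0.0574). Smc4, a condensin subunit, fell by 1.32 on the log2 scale (SE 0.211, edgeR adjusted p = 0.00624) and likewise did not pass without that library (0.0534).

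Cdk1 and Ccnb1, which drive entry into mitosis, did not pass: Cdk1 lay at 112.9 and 115.5 CPM in wild-type and at 102.3 and 128.5 CPM in CIS-null libraries (log2 fold change 0.01, SE 0.165, adjusted p = 0.970), and Ccnb1 had 0.00 (SE 0.122, adjusted p = 0.996). Top2a, the mitotic topoisomerase, did not pass (-1.01, SE 0.328, adjusted p = 0.0525). Of 49 genes of DNA replication and S phase 1 rose and 5 fell, with a median of 0.06, and the falls numbered 0 without CIS-null replicate 2 or wild-type replicate 1 and 2 without wild-type replicate 2. The 1 rise and 5 falls were 2.04% and 10.2% of that list, beside 11.0% and 14.6% of all genes. Pcna, the sliding clamp, had a log2 fold change of 0.31 (SE 0.107, adjusted p = 0.0625). Of 25 G1 cyclins and cell cycle inhibitors 3 rose and 3 fell, 2 of them held. At 12% each this was near the 11.0% and 14.6% of all genes. The held genes encode inhibitors of cyclin-dependent kinases: Cdkn1a, which encodes p21, lay at 78.7 and 73.0 CPM in wild-type and 143.9 and 135.2 CPM in CIS-null libraries (0.88, SE 0.140, edgeR adjusted p = 0.00612). Cdkn2b, which encodes p15, went from 16.8 and 14.2 CPM to 31.0 and 37.6 CPM (1.15, SE 0.152, edgeR adjusted p = 0.0041). Cdkn1b, which encodes the inhibitor p27, did not pass (-0.25, SE 0.130, adjusted p = 0.193).

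Interferon-stimulated genes were mixed, with a median of -0.20. Among 41 tested there were 15 falls (36.6%, beside 14.6% of all genes) and 4 rises (9.76%, beside 11.0%). After removal of the length trend 12 of the falls were kept, and 4 were held: Stat2, Eif2ak2, Ifit2 and Ifi203. Stat2, which relays type I interferon, went from 36.9 and 36.2 CPM to 18.4 and 16.7 CPM (-1.06, SE 0.103, edgeR adjusted p = 0.00233). Eif2ak2, the RNA-activated kinase PKR, went from 24.6 and 23.2 CPM to 14.2 and 12.5 CPM (-0.84, SE 0.112, edgeR adjusted p = 0.0043). Both had replicates closer to each other than to the other genotype. Isg15, a ubiquitin-like protein, did not pass (0.31, SE 0.179, adjusted p = 0.223). The falls numbered 4 without CIS-null replicate 2 and 5 without wild-type replicate 1 or replicate 2.

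The PI3K and mTOR list had 13 falls (44.8%, beside 14.6% of all genes) and 2 rises of 29 (median -0.37). Of these, 4 falls were kept with the length trend removed (median -0.11). Pik3r2, a regulatory subunit of PI3K, was held at 18.9 and 13.6 CPM in wild-type and 7.05 and 6.21 CPM in CIS-null libraries (-1.29, SE 0.169, edgeR adjusted p = 0.00409). Without CIS-null replicate 2 the list had 2 falls, without wild-type replicate 1 or 2 it had 1 and 3, and without either wild-type ex vivo library 5. Autophagy genes had 10 falls (31.2%) and 1 rise of 32, with Rb1cc1, a subunit of the initiating kinase complex, as the held member (-0.97, SE 0.160, edgeR adjusted p = 0.00654). Their falls numbered 2 without CIS-null replicate 2 or wild-type replicate 1 and 4 without wild-type replicate 2.

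Long genes of chromatin regulation fell nearly throughout. Of 46 tested 42 fell and 1 rose (91.3% lower, beside 14.6% of all genes), with a median of -1.02. Their median length was 8820.5 bases. Without the length trend the median was -0.48, 35 falls were kept, and 14 were held. Bptf, a subunit of the nucleosome remodelling factor, went from 64.4 and 54.0 CPM to 17.6 and 15.2 CPM (-1.85, SE 0.171, edgeR adjusted p = 0.0020). Dnmt1, the maintenance DNA methyltransferase, went from 158.3 and 153.5 CPM to 69.5 and 58.6 CPM (-1.28, SE 0.124, edgeR adjusted p = 0.00233). The histone acetyltransferases Ep300 and Crebbp were held at -1.22 (SE 0.167, adjusted p = 0.0046) and -1.35 (SE 0.160, adjusted p = 0.00331). With the length trend removed the log2 fold changes of these 4 genes were -1.25, -0.93, -0.73 and -0.93. The rise was Kdm6a, an X-linked demethylase known to escape X inactivation (0.44, SE 0.107, edgeR adjusted p = 0.0215), which did not pass without any 1 of the 4 in vitro libraries (0.0586 to 0.132). The list had 16 falls without CIS-null replicate 2 and 21 without wild-type replicate 1.

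Genes of the T cell receptor complex had the largest held rises among the autosomal genes named, in cells labelled as NK cells. The CD3 chains summed to 168.3 and 161.2 CPM in wild-type and 823.7 and 790.5 CPM in CIS-null libraries. Cd3d went from 28.1 and 10.4 CPM to 241.0 and 271.9 CPM, and Cd3e from 9.87 and 3.51 CPM to 86.7 and 68.8 CPM. Cd3g, in contrast, was already at 130.3 and 147.3 CPM in wild-type libraries and lay at 496.1 and 449.8 CPM in CIS-null libraries (1.77, SE 0.183, edgeR adjusted p = 0.0029). The gamma constant genes Tcrg-C1, Tcrg-C2 and Tcrg-C4 were held at log2 fold changes of 1.83 (SE 0.178), 3.82 (SE 0.351) and 3.53 (SE 0.464), with edgeR adjusted p-values of 0.00233, 0.0020 and 0.00409. They share sequence, so their split is uncertain.

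Rearranging segments moved with the constant genes. The 7 gamma variable segments summed to 8.41 and 3.97 CPM in wild-type and 85.2 and 81.7 CPM in CIS-null libraries. The 24 beta variable segments summed to 9.42 and 2.56 CPM in wild-type and to 58.1 and 64.8 CPM in CIS-null libraries, and the 114 alpha segments to 5.39 and 4.95 CPM and to 25.9 and 23.4 CPM. The 5 delta segments differed least, with 39.5 and 32.7 CPM in wild-type and 54.0 and 52.2 CPM in CIS-null libraries. Trac, the alpha constant gene, went from 12.7 and 6.36 CPM to 32.2 and 26.8 CPM (1.63, SE 0.302, edgeR adjusted p = 0.0094) and did not pass without CIS-null replicate 2 (0.0552).

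Over the 23 tested alpha-beta T cell markers 9 rose (39.1%, beside 11.0% of all genes) and 2 fell (8.7%, beside 14.6%), 4 of them held. Their sum was 1354 and 1198 CPM in wild-type and 2197 and 2201 CPM in CIS-null libraries. The count of rises was 4 without CIS-null replicate 2. Of the 10 tested gamma-delta markers 5 rose and 1 fell, and the sum was 263.0 and 241.3 CPM in wild-type and 514.8 and 479.8 CPM in CIS-null libraries. The T cell genes Cd4, Cd5, Cd6, Cd8b1 and Themis, singled out after their values were seen, lay at 0 to 1.04 CPM in each of the 4 libraries, and Cd5 passed as higher at these levels but not without any 1 of the in vitro or wild-type ex vivo libraries. At these levels Cd6, Cd8b1 and Themis were also higher in both CIS-null libraries without passing (log2 fold changes 1.12, 3.80 and 2.36). Cd4 was lower in both without passing (-1.91). The T cell markers that rose did so in the same libraries as the granzymes and the biosynthesis genes, and their part in those results was not tested.

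Markers of other cells were read in the same 4 libraries. Ms4a1 of B cells, Mpo and S100a9 of neutrophils, Pf4 and Ppbp of platelets, and Fcer1a and Ms4a2 of basophils and mast cells had 0 counts in all 4 in vitro libraries. Csf1r, Lyz2 and Emr1 of macrophages lay at 0 to 0.0401 CPM. These genes were picked after their values were seen, and other members of several lists were present. The 263 immunoglobulin segments held 2748 to 5164 counts per library. Tested members summed to 92.95 to 164.4 CPM for B and plasma cells and to 62.92 to 101.8 CPM for neutrophils. Sums were 1245 to 1782 CPM for monocytes and macrophages and 451.8 to 670.8 CPM for dendritic cells. In those lists the tested members with rises were Cd14, which was not held, and Ly6c2 among 20 monocyte and macrophage markers and Mcpt8, a basophil protease, among 11. Mcpt8 went from 12.4 and 15.4 CPM to 29.9 and 49.4 CPM (1.51, SE 0.277, edgeR adjusted p = 0.00917) and did not pass without CIS-null replicate 2 (0.0777) or wild-type replicate 1 (0.0572). Kit, given above, fell in the same list, and the list added up to 777.5 and 992.9 CPM in wild-type and 473.9 and 438.5 CPM in CIS-null libraries. Of 8 erythroid markers 1 rose (12.5%, beside 11.0% of all genes), the transferrin receptor Tfrc. Tfrc was not held, with the same 3 libraries ending its call as for Cd14: CIS-null replicate 2 and wild-type replicates 1 and 2. Of 16 markers of other innate lymphoid cells 2 rose and 2 fell (12.5% each, beside 11.0% and 14.6% of all genes), of which Tcrg-C1 was held.

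**Figure D5:**
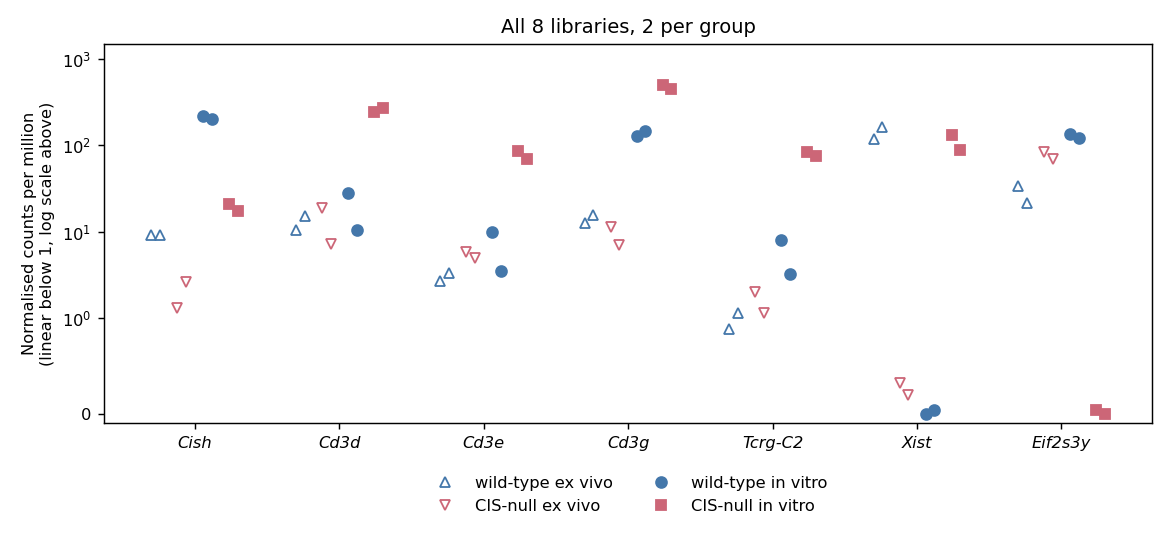
Normalised CPM (y axis, linear below 1 and log above) of Cish, CD3 and gamma constant genes, Xist and the Y-linked Eif2s3y (x axis) in all 8 libraries, 2 per group: open symbols ex vivo, filled in vitro, blue wild-type, red CIS-null. The CIS-null in vitro libraries are the highest for the CD3 and gamma constant genes, hold 130.7 and 89.7 CPM of Xist, and hold under 0.1 CPM of Eif2s3y.

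Few of these genotype differences passed a test against those ex vivo. The test of the difference between the in vitro and the ex vivo genotype effect passed for 18 genes (0.137%), 7 more positive (0.0531%) and 11 more negative (0.0834%) in vitro, of which 17 were held in vitro. The 2 contrasts share no libraries. Xist was high in the CIS-null libraries in vitro. Ex vivo it was high in the wild-type libraries instead (119.6 and 162.1 CPM, against 0.322 and 0.197 CPM in CIS-null). A difference between the states therefore cannot be told apart from sex-linked RNA for any gene here. Ex vivo, 8 genes passed (0.0607%). Apart from sex-linked genes, those more positive in vitro were Cd3g, Srm, Slc19a1, a folate carrier, and Lrrfip2, whose in vitro call (0.59, SE 0.100, adjusted p = 0.00722) was lost without CIS-null replicate 2 (0.0516) or wild-type replicate 2 (0.0522). Slc19a1 lay at 21.3 and 22.8 CPM in wild-type and 44.2 and 48.1 CPM in CIS-null libraries in vitro, with a log2 fold change of 1.07 there and of 0.01 ex vivo (log2 difference 1.05, SE 0.142, edgeR adjusted p = 0.0433). Among those more negative were Sdc4, Dscam, Il18r1, Zhx2, a transcriptional repressor, and Klrb1f. Il18r1 had log2 fold changes of -1.20 in vitro and 0.02 ex vivo (log2 difference -1.22, SE 0.147, adjusted p = 0.0296). Sdc4, a cell surface proteoglycan, went in opposite directions: 84.6 and 83.7 CPM in wild-type and 34.9 and 26.9 CPM in CIS-null libraries in vitro, and 25.7 and 30.0 CPM in wild-type and 67.5 and 62.7 CPM in CIS-null libraries ex vivo (log2 difference -2.67, SE 0.192, adjusted p = 0.000915). In both states Sdc4 was lower, and Lrrfip2 higher, in the libraries with high Xist. Gzmb had a log2 fold change of 0.06 ex vivo (adjusted p = 0.901) beside 1.09 in vitro, and its difference between the states did not pass (1.03, adjusted p = 0.0598). Without the genes of chromosomes X and Y, 1 gene passed this test. The count was 354 and 378 without CIS-null replicate 1 of the ex vivo and the in vitro libraries, 41 when the first wild-type in vitro library was omitted, and 6 to 9 when any 1 of the other 5 libraries was omitted.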

How the data were processed

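RNA was sequenced from NK cells in 8 libraries, 2 per genotype and state, and genotype and state were taken from the labels. The count values are those the authors deposited per gene. Per the submitters' processing notes, Subread, featureCounts and limma were used with GRCm38 (mm10), while versions and strand, multi-mapping and pooling settings are not given in the sources used here. The authors also deposited log2 RPKM values for 12372 genes, whose normalisation is not given, and these served only as an alternative.

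Counts were scaled by TMM (edgeR 4.0.16, R 4.3.3), filtered with filterByExpr (minimum count 10) to 13184 genes, and tested in 1 quasi-likelihood fit to all 8 libraries, with Benjamini-Hochberg adjustment over all tested genes and a threshold of 0.05. Standard errors are on the log2 scale. Totals of 27.2 to 28.1 M counts in vitro and 21.5 to 24.9 M ex vivo bound counting error only. The length trend of each library was removed as a natural spline (4 degrees of freedom) of log2 gene length entered as an offset. Both steps were tested on simulated data. Where a simulated length trend was left in, 88.4% of the calls were false, and where it was removed 7.77% were. The simulated trend was a straight line in log2 length, a form that the spline can remove by design. The simulation therefore cannot show what share of the calls in the real data is false. Counts of calls from the fit without removal are to be read with those after it.

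Named genes were Cish, the 15 held autosomal genes per direction with the largest change at 5 CPM or more, and members of fixed lists: the first 4 key members, up to 6 passing members per direction, and all members of short lists. Genes given beyond this rule (Il18r1, Kit, the near-absent markers) were chosen after their values were seen. The members and the gene lists were chosen with earlier results of these data known. Alternatives were DESeq2 1.42.0, its size factors, limma-voom (limma 3.58.1), other filters and scalings, a replicate block, and each library left out.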

Additional observations from a re-analysis of the deposited data

Results flagged for a closer look

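The genotype effect differed between the in vitro and ex vivo state by a test of the difference itself (edgeR quasi-likelihood interaction, Benjamini-Hochberg adjusted) for the following named genes. More positive in vitro were Cd3g, with a log2 difference of 2.39 (adjusted p = 0.0296), Srm with 1.26 (0.0389), Lrrfip2 with 1.11 (0.0345) and Slc19a1 with 1.05 (0.0433). More negative in vitro were Sdc4 with -2.67 (0.000915), Dscam with -2.52 (0.0296), Il18r1 with -1.22 (0.0296), Zhx2 with -1.20 (0.0323) and Klrb1f with -0.99 (0.0345). The sex-linked Xist had 21.35 (2.11e-06) and Eif2s3y -13.83 (1.4e-05). These last values come from groups at or near 0 counts, so they depend on the prior count and bound no fold. Xist was high in wild-type libraries ex vivo and in CIS-null libraries in vitro. The differences listed here therefore cannot be told apart from sex-linked RNA.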

How the results depend on the processing

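Cish kept its call in each of the 25 alternative settings. Higher genes (1445) numbered 744 under library totals, 296 with the length trend removed without CIS-null in vitro replicate 2, and 187 to 1980 without single libraries. Lower genes (1929) numbered 314 and 313 to 2316 in the last 2 cases. The 18 genes of the difference between states numbered 592 by DESeq2, 267 with length and base composition removed, 115 with the length trend removed, 184 and 10 with it removed without CIS-null in vitro replicates 1 and 2, 75 with no low-count filter, 1 on log2 RPKM, 1 without X and Y genes, and 6 to 378 without single libraries. Replicate numbers are shared by the groups but not stated to pair them, and same-numbered in vitro libraries correlated at -0.0501. With the replicate block 1008 genes rose and 1519 fell, and 6 passed for the difference, or 56 with the length trend removed as well. The log2 fold change turned sign for Bcl2 (0.00 with the length trend removed, with or without the replicate block, and 0.02 without CIS-null replicate 2), for Socs7 (0.02, 0.02 and 0.05, and 0.13 with base composition removed too), for Cd44 (0.01 with the trend removed without CIS-null replicate 1) and for Gzmc (-0.13 on log2 RPKM). The cause was not tested, except that the RPKM scale fixes values by rank. With 2 libraries per group, lone libraries left by an omission are assumed to vary like the other groups.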
